A study of Mus musculus and Mus musculus musculus x Mus musculus castaneus with 52 samples.

Results

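Dusp9 is an X-linked dual-specificity phosphatase that inactivates the MAP kinase ERK, and mouse embryonic stem cells with both X chromosomes active carry a double dose of it. In serum with LIF, the cytokine that signals through Stat3, ERK signalling driven by Fgf4 moves these cells toward differentiation, while feedback inhibitors such as the Dusp and Spry families damp it. XX embryonic stem cells are known for low ERK output, high naive pluripotency transcripts and low DNA methylation, and heterozygous loss of Dusp9 asks how far the dose of this phosphatase bears on that state. The comparison described here sets 2 independent female lines labelled Dusp9+/- against F121, a wild-type female line, before LIF was withdrawn.

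The comparison holds 3 of the 24 columns of the deposited RNA table, which stand for 6 of the 52 samples of the series, since the labels list each line with a technical repeat and the table gives each a single column. F121 and both Dusp9+/- lines are crosses of Mus musculus musculus with Mus musculus castaneus. All 3 were cultured in serum and LIF with no feeder layer and collected at 0 h of LIF withdrawal. Each Dusp9+/- line is a clone of its own, and neither the mutated region nor the way the allele was made is given in the labels. CM1 and CM2, 2 wild-type female lines of the same cross at passage P5, serve only as context, because they come from another experiment. V6.5 is the wild-type male Mus musculus line of the withdrawal experiment. Recovered reads came to 13346033 in F121 and to 11104819 and 11788687 in the libraries labelled clone 1 and clone 2. A level is a log2 CPM (a read count scaled to library size), and a gene with 0 reads stands at -2.45. A difference is a clone minus F121 on that scale, and 14335 genes that averaged 1 CPM or more over the withdrawal experiment were compared.

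Because F121 is a single library, the main description counts genes for which both clones lay at least 2-fold on the same side of it. A limma fit over the 8 libraries of the withdrawal experiment gives the differences as estimate ± standard error. A gene is called where the two-sided p, adjusted by Benjamini-Hochberg over all genes tested, is under 0.05. All of its 2 residual degrees of freedom come from the spread between the clones, and F121 is assumed to vary as they do. Nothing states that any column averages separate cultures, so the p-values measure the spread between these clones alone. Every difference from F121 shares that library, so an error in it moves both clones the same way.

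The labels were checked first. Dusp9 itself (chromosome X, 73639389 to 73643514 in GRCm38.p6) had 1623 reads in F121, and 721 and 2137 in the libraries labelled clone 1 and clone 2, which is 6.93, 5.96 and 7.43 log2 CPM. One clone lay below F121 and the other above it, both lay below CM1 (8.08) and CM2 (7.89), and the limma difference was -0.24 ± 0.66 (adjusted p = 0.836). The transcript level thus does not separate the libraries labelled Dusp9+/- from F121. At 24 h the library labelled clone 1 was the higher one, at 7.71 against 6.58 and 7.84 in F121. The pluripotency factors Pou5f1 (9.20 in F121, 9.16 and 9.40 in the clones) and Sox2 (8.29, 8.14 and 8.31) were highly expressed in all 3 libraries and were not called.

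Chromosome 12 showed the same exchange between the clone labels. The median of its 465 tested genes lay 0.52 (clone 1) and 0.07 (clone 2) above F121 at 0 h, but 0.06 and 0.48 above it at 24 h. In the library labelled clone 1, 88.8% of chromosome 12 genes were above F121, against 58.5% in the library labelled clone 2. Nnat, an imprinted gene of chromosome 2 and the only gene 2-fold above F121 in one clone and 2-fold below it in the other at 0 h, also changed sides, with 0.28 and 2.76 log2 CPM at 0 h and 2.52 and 1.42 at 24 h. Whether the labels were exchanged between the times was not tested. The comparison at 0 h uses both clones together and does not depend on which is which.

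**Figure D1:**
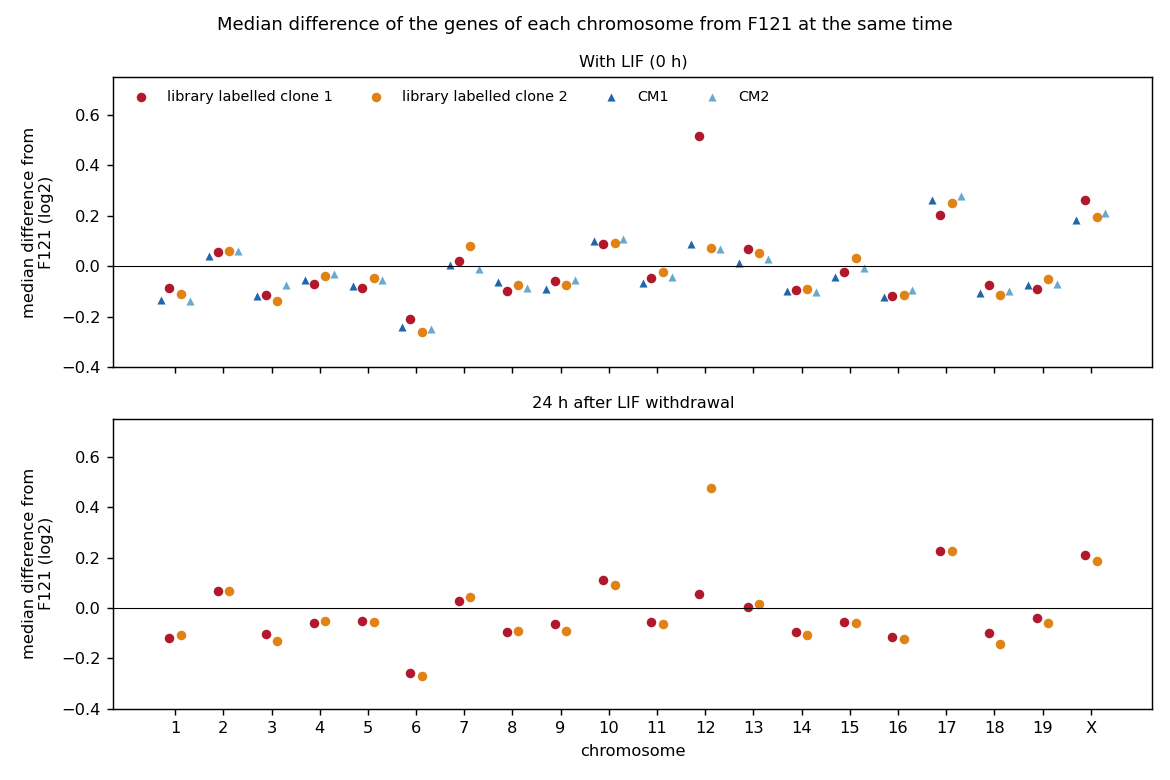
Median difference from F121 of the tested genes on each chromosome (log2, y axis), for the libraries labelled clone 1 (red) and clone 2 (orange) at 0 h and 24 h, with CM1 and CM2 (blue triangles) against F121 at 0 h. Chromosome 12 is raised in the library labelled clone 1 at 0 h (0.52) and in the library labelled clone 2 at 24 h (0.48), while chromosomes 6, 17 and X sit off 0 in every library compared with F121.

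F121 also stood apart from all 4 other XX libraries on some chromosomes. The chromosome 6 median was 0.21 and 0.26 below F121 in the clones and 0.24 and 0.25 below it in CM1 and CM2. The chromosome 17 median was 0.20 and 0.25 above F121 in the clones and 0.26 and 0.28 above it in CM1 and CM2. The 555 X-linked genes had medians of 0.26 and 0.19 above F121 in the clones and 0.19 and 0.21 in CM1 and CM2. All of these differences share the F121 library, and the medians of all genes tested lay at -0.007 and -0.01 in the clones. As a level, the X-linked median minus the autosomal median was 0.02 in F121, 0.19 and 0.09 in the clones, 0.05 and 0.04 in CM1 and CM2 and -0.90 in the male V6.5, so both clones lay on the side of the XX lines. With genes of at least 4 CPM the clones' excess over F121 in that measure was 0.37 and 0.34 instead of 0.18 and 0.08.

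Across the transcriptome both clones departed from F121 in many of the same genes. Both were at least 2-fold above F121 for 598 genes (4.17% of those tested) and at least 2-fold below it for 355 (2.48%). Taken singly, the library labelled clone 1 was 2-fold above F121 for 952 genes (6.64%) and below it for 713 (4.97%), and the library labelled clone 2 was above for 987 (6.89%) and below for 448 (3.13%). Limma called 689 genes higher (4.81%) and 588 lower (4.1%), and these held 407 of the 598 and 209 of the 355. Without the library labelled clone 2 limma called 2155 genes in place of 1277, and without the library labelled clone 1 it called 1787. For 156 genes (1.09%) both clones were 2-fold above CM1 and CM2 as well as F121, and for 83 (0.579%) they were 2-fold below all 3.

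**Figure D2:**
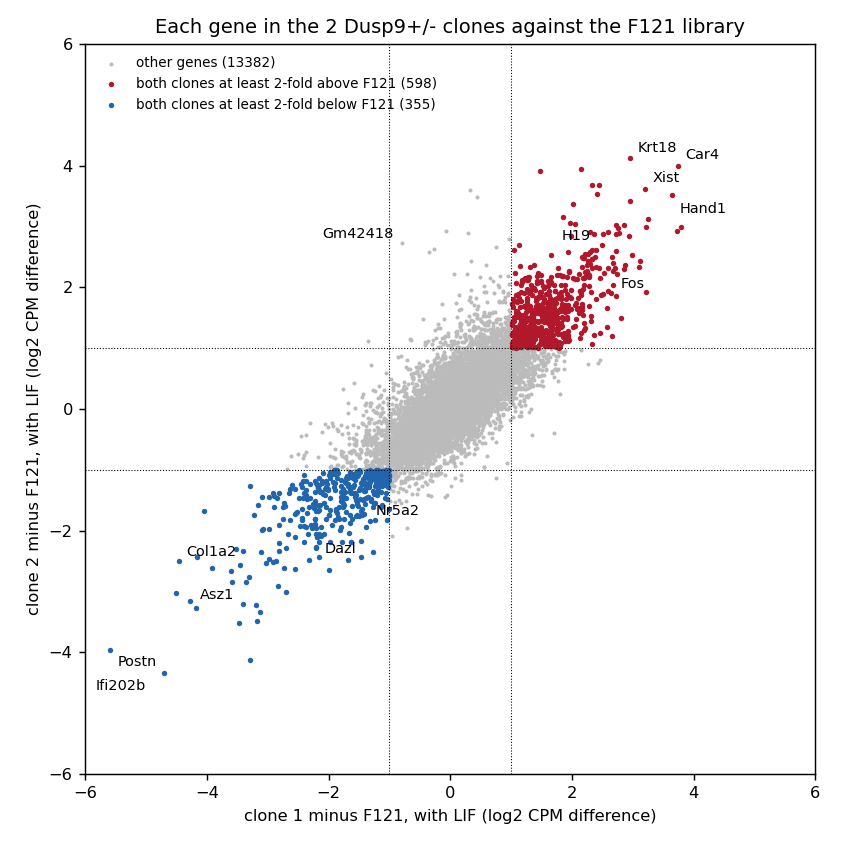
Difference from F121 with LIF in clone 1 (x axis) and clone 2 (y axis), in log2 CPM, for each of the 14335 genes tested; red and blue points are the 598 and 355 genes for which both clones lie at least 2-fold (dotted lines) above or below F121. Both axes subtract the same F121 library, so points lie along the diagonal also through the error of that library.

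The largest shared increases were of unlike kinds. Car4, a membrane-bound carbonic anhydrase, stood at 1.04 log2 CPM in F121, 4.78 and 5.03 in the clones and 4.87 and 4.22 in CM1 and CM2, so F121 was the low library. Hand1, a transcription factor of trophoblast giant cells and extra-embryonic mesoderm, had 10 reads in F121 against 134 and 130 in the clones, or -0.10, 3.55 and 3.41 log2 CPM. It was at -1.40 and -0.75 in CM1 and CM2, so the clones were the high libraries, and the limma difference was 3.58 ± 0.35 (adjusted p = 0.015). Others that rose with all 3 wild-type XX libraries below both clones were Clic5, an intracellular chloride channel family member (0.30 in F121, 3.26 and 3.71 in the clones), and the pseudogene Olfr1372-ps1 (0.47, 3.68 and 3.45). The protocadherin gene Pcdh1, Fam57b and the X-linked Fndc3c1 rose by 2.66 to 2.90 and were also higher in CM1 and CM2 than in F121.

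Several of the largest shared decreases were of genes for which F121 stood apart from every other XX library. Ifi202b, an interferon-inducible gene, had 91 reads in F121 against 1 and 2 in the clones, ratios of F121 to clone of 79.3 (95% counting interval 13.9 to 3170) and 42.5 (11.4 to 356), and it was at or near 0 reads in CM1 and CM2 too (-2.45 and -1.91). Gm15262 and 1700080O16Rik, both X-linked, fell by 3.71 ± 0.56 (adjusted p = 0.0246) and 3.21 ± 0.31 (adjusted p = 0.0149) on the log2 scale, and CM1 and CM2 were low for both. The arginase gene Arg1, the protease inhibitor gene Serpina3n and Ptn, which encodes the growth factor pleiotrophin, followed the same pattern, with levels of 2.68, 2.25 and 4.12 in F121 and at most 0.99 in the clones. For these genes the male V6.5 library lay close to F121 (2.48, 2.40 and 4.11).

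Trophoblast and simple-epithelium genes were higher in both clones. Of 13 tested members of the trophoblast list 6 were 2-fold above F121 in both clones and 0 were below, limma called 6 higher and 0 lower, and the list medians were 1.00 and 1.26. Of all genes tested, 4.17% were 2-fold above F121 in both clones and 2.48% below, and limma called 4.81% higher and 4.1% lower. These shares are the background for the counts of every list that follows. Against the same F121 library the list medians of CM1 and CM2 were 1.00 and 0.66. The keratins led. Krt18 stood at 3.87 log2 CPM in F121, 6.84 and 8.01 in the clones and 6.51 and 6.27 in CM1 and CM2, a limma difference of 3.55 ± 0.43 (adjusted p = 0.0195). Krt7 stood at 1.64, then 4.05 and 5.17 in the clones, with CM1 and CM2 between them and F121 at 2.86 and 2.29. Krt19 stood at 3.08, then 5.35 and 5.62, with CM1 and CM2 at 3.76 and 3.67. Krt8, the partner of Krt18 in simple epithelia, stood at 2.93, then 5.08 and 6.87 in the clones, with CM1 and CM2 between them at 5.66 and 5.68. These keratins and Hand1 kept both clones 2-fold above F121 at 24 h. The trophoblast regulators Gata3, Gata2 and Eomes were not called (adjusted p = 0.0852, 0.079 and 0.79), so the called members were structural genes, Hand1 and the growth factor receptor Fgfr2.

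Tight-junction genes moved in the same direction. Of 27 epithelial junction genes 7 were 2-fold higher in both clones, 1 was lower, and limma called 8 higher and 0 lower, with list medians of 0.50 and 0.47. The claudin Cldn6 stood at 4.10 in F121, 6.48 and 6.60 in the clones and 5.02 and 4.99 in CM1 and CM2, a limma difference of 2.44 ± 0.14 (adjusted p = 0.00826). Cldn7 stood at 2.94 in F121 and at 5.39 and 5.26 in the clones. Cldn4 (1.66 ± 0.15), the claudin Cldn3 (2.34 ± 0.29) and the scaffold gene Tjp3 (1.81 ± 0.36) also rose, but for Cldn3 and Tjp3 CM1 and CM2 were as high as the clones. The core adhesion genes Cdh1 (9.29 in F121, 9.46 and 9.30 in the clones) and Tjp1 (8.51, 8.57 and 8.56) were not called. N-cadherin, Cdh2, was the member below F121 in both clones (4.98, 2.82 and 3.83; adjusted p = 0.0747). All 7 genes that were higher with LIF were again 2-fold higher in both clones at 24 h.

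Immediate-early genes, transcribed within minutes of growth-factor or stress signals, were higher in both clones. Of 16 tested, 10 were 2-fold above F121 in both, 0 were below and limma called 10 higher and 0 lower, with medians of 1.31 and 1.67. Fos had 863 reads in F121 and 4824 and 3866 in the clones, or 6.02, 8.70 and 8.28 log2 CPM, with CM1 and CM2 at 6.24 and 6.10. Both clones lay above all 3 wild-type XX libraries, and the limma difference was 2.47 ± 0.21 (adjusted p = 0.0136). Fos lies on chromosome 12, whose median was raised in the library labelled clone 1 but not in the other. Fosb (5.63, 7.80 and 8.10), Egr2 (1.70, 4.45 and 3.92) and Egr1 (7.29, 8.87 and 8.55) showed the same order, with CM1 and CM2 no higher than 5.89, 2.01 and 7.00. Jun stood at 4.28 in F121 and 6.86 and 7.18 in the clones, but CM1 and CM2 were also high at 6.20 and 6.19. Junb differed between the clones (3.71 and 5.63 against 2.96 in F121) and was not called (adjusted p = 0.163). At 24 h only 3 of the 10, Jun, Ier3 and Gadd45b, were 2-fold above F121 in both clones, and Egr1 was 0.53 and 0.67 below it.

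The MAP kinase phosphatases that limma called, from a family in which many genes are induced by ERK, were mostly higher. Of 12 tested, Dusp9 among them, 4 were 2-fold above F121 in both clones and 0 below, limma called 5 higher and 1 lower, and the medians were 0.52 and 0.70. Dusp1, an immediate-early nuclear phosphatase, stood at 6.66 in F121, 8.36 and 8.22 in the clones and 6.92 and 6.99 in CM1 and CM2. Dusp6, the cytoplasmic ERK phosphatase and a common readout of FGF signalling, stood at 4.64 in F121, 6.06 and 5.86 in the clones and 5.19 and 5.26 in CM1 and CM2. Both rose by limma, Dusp1 by 1.63 ± 0.12 (adjusted p = 0.0127) and Dusp6 by 1.32 ± 0.15 (adjusted p = 0.0173). Dusp4 (4.83, 6.24 and 6.65) and Dusp8 (1.09, 3.37 and 3.26) rose too. CM1 and CM2 were also 2-fold above F121 for both, at 5.96 and 5.87 for Dusp4 and 2.41 and 2.45 for Dusp8. Dusp16, which acts on stress kinases, fell by 0.71 ± 0.10 (adjusted p = 0.0243). It stood at 7.46 in F121, 6.75 and 6.76 in the clones and 6.69 and 6.66 in CM1 and CM2. F121 was thus the high XX library for Dusp16.

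The promoters of Dusp1 and Dusp8 are shown because both hold the cyclic AMP response element TGACGTCA, a palindrome that reads alike on both strands. The 150 bases upstream of each RefSeq start site (GRCm38.p6) run 5′ to 3′ on the gene's strand, with the element in capitals. Dusp1 lies on the minus strand at chr17:26508473-26508622 and Dusp8 on the minus strand at chr7:142095285-142095434.
Dusp1: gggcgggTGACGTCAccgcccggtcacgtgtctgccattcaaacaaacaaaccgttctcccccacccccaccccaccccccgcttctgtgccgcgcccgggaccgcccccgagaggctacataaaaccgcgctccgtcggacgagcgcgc
Dusp8: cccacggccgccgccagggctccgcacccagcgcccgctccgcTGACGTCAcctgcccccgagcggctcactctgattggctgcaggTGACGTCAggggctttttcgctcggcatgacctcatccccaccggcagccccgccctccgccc
The element begins 143 bases upstream of the Dusp1 start and 107 and 63 bases upstream of the Dusp8 start. Within 250 upstream bases it was present in 2 of the 10 tested members with a window, against 3.04% of the 10489 tested genes with one. A match describes the letters only, and the motifs shown here were chosen after the values were seen.

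The wider FGF and ERK feedback list did not move as a block. Of 32 genes 5 were 2-fold higher in both clones and 0 lower, limma called 9 higher and 2 lower, and the medians were 0.05 and 0.23. The FGF receptor genes Fgfr2 (0.87 ± 0.14) and Fgfr4 (2.09 ± 0.31) and the feedback inhibitor gene Spry1 (1.01 ± 0.18) rose. The ERK-responsive factor gene Etv4 fell by 0.75 ± 0.12, from 6.17 in F121 to 5.35 and 5.50 in the clones. CM1 and CM2 also stood at 5.35 and 5.50, so F121 was the high XX library. The ligand gene Fgf4 (7.62 in F121, 7.67 and 7.27 in the clones), Spry2 (5.90, 5.63 and 5.69) and Etv5 (6.87, 6.47 and 6.30) were not called.

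**Figure D3:**
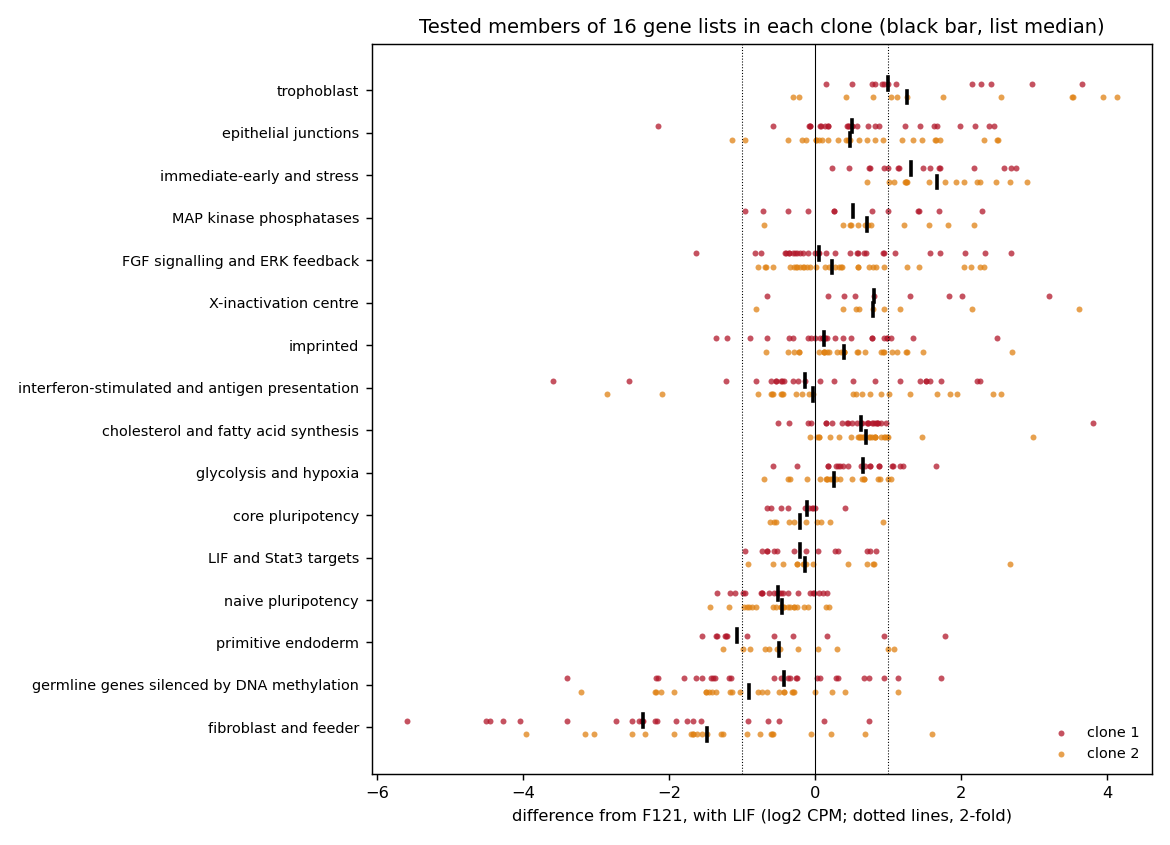
Difference from F121 with LIF (log2 CPM, x axis) of each tested member of 16 gene lists, in clone 1 (red) and clone 2 (orange); black bars are list medians and dotted lines mark 2-fold. The immediate-early medians lie at 1.31 and 1.67 and the fibroblast medians at -2.36 and -1.49, while core pluripotency lies at -0.11 and -0.21.

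Naive pluripotency transcripts were moderately lower in the clones. Of 22 genes 2 were 2-fold below F121 in both clones and 0 above, limma called 9 lower and 0 higher, and the medians were -0.51 and -0.45. CM1 and CM2 had list medians of 0.11 and 0.12 against the same F121 library. Nr5a2, an orphan nuclear receptor of naive cells, stood at 6.36 in F121, 5.01 and 4.91 in the clones and 6.32 and 6.38 in CM1 and CM2. The clones were the low libraries, and Nr5a2 fell by 1.40 ± 0.13 (adjusted p = 0.0144). Tbx3, a factor downstream of LIF, stood at 8.28 in F121, 7.11 and 7.35 in the clones and 8.66 and 8.65 in CM1 and CM2. Nanog stood at 9.44 in F121, 8.69 and 8.56 in the clones and 9.50 and 9.59 in CM1 and CM2, and fell by 0.81 ± 0.12 (adjusted p = 0.0245). Klf5 fell by 0.82 ± 0.12, while Esrrb (-0.25 ± 0.29, adjusted p = 0.598) and Klf4 (-0.44 ± 0.26, adjusted p = 0.296) were not called. At 24 h the medians of the list were -0.05 and 0.02, and Nr5a2 stood within 0.03 of F121 in both clones.

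Core pluripotency genes and LIF targets held 0 genes that met the 2-fold rule, and formative genes moved in both directions. Of 10 core pluripotency genes limma called 3 lower, Trim28, Dppa2 and L1td1, and 0 higher. That share was above the 4.1% of all genes tested that limma called lower. For L1td1 (10.23 in F121, 9.75 and 9.69 in the clones) CM1 and CM2 were as low, at 9.72 and 9.70. For Trim28 CM1 and CM2 (10.86 and 10.90) lay between F121 (11.35) and the clones (10.69 and 10.73). For Dppa2 the clones (5.00 and 5.04) lay below F121 (5.61) and below CM1 and CM2 (both 5.84). Of 14 LIF and Stat3 targets 0 met the rule, and limma called Socs3, the feedback inhibitor of this pathway, higher (0.71 ± 0.15) and Stat3 itself lower (-0.57 ± 0.12). Socs3 stood at 5.37 in F121, 6.08 in both clones and 5.39 in CM1 and CM2. Stat3 stood at 7.30 in F121, 6.74 and 6.71 in the clones and 6.40 and 6.61 in CM1 and CM2. F121 was thus the high XX library for Stat3. Of 15 formative and primed genes 3 were 2-fold higher and 1 was lower, with 5 called higher and 4 lower. Fgf5, a marker of the formative state, stood at 1.53 in F121, 3.86 and 3.84 in the clones and 4.17 and 4.00 in CM1 and CM2, so F121 was the low library. The same held for the POU factor Pou3f1 (2.42, then 3.85 and 4.50, with 4.57 and 4.12 in CM1 and CM2).

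Among genes that act on DNA methylation, limma called Tet2, Trim28 and Zfp57 lower and Dnmt3b higher. The dioxygenase gene Tet2 stood at 8.89 in F121, 7.79 and 7.71 in the clones and 8.27 and 8.31 in CM1 and CM2, below every wild-type XX library, and it fell by 1.14 ± 0.09 (adjusted p = 0.0135). The de novo methyltransferase gene Dnmt3b stood at 7.92 in F121, 8.60 and 8.68 in the clones and 7.70 and 7.65 in CM1 and CM2, and it rose by 0.72 ± 0.09 (adjusted p = 0.0199). Dnmt3a was 7.37 in F121 and 8.76 and 7.96 in the clones, but it lies on chromosome 12 and was not called (adjusted p = 0.155). The maintenance genes Dnmt1 (9.24, 9.27 and 9.05) and Uhrf1 (8.33, 8.56 and 8.57) were not called. Of the 14 genes of this list 1 was 2-fold lower in both clones and limma called 1 higher and 3 lower. Beside Tet2, Trim28 fell by 0.643 ± 0.085 (adjusted p = 0.0214) and Zfp57 by 0.48 ± 0.09 (adjusted p = 0.0366). Zfp57 stood at 8.41 in F121, 7.92 and 7.95 in the clones and 8.41 and 8.39 in CM1 and CM2.

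Germline genes, which promoter methylation silences in somatic cells, were lower in both clones. Of 26 tested, 11 were 2-fold below F121 in both clones and 1 was above, limma called 11 lower and 1 higher, and the medians were -0.42 and -0.91. The RNA-binding gene Dazl stood at 6.54 log2 CPM in F121, 4.35 and 4.43 in the clones and 5.21 and 4.96 in CM1 and CM2, and it fell by 2.15 ± 0.15 (adjusted p = 0.0127). The ADP/ATP carrier gene Slc25a31 had 131 reads in F121 and 24 and 25 in the clones, or 3.32, 1.17 and 1.13 log2 CPM, but -0.79 and -0.96 in CM1 and CM2. Asz1, a gene of the piRNA pathway, had 60 reads in F121 and 3 and 4 in the clones, ratios of F121 to clone with wide counting intervals, and it was as low in CM1 and CM2. For all but 1 of the 11 genes F121 was above both CM1 and CM2 as well, and the CM1 and CM2 medians over the list, against the same F121 library, were -0.81 and -1.24. The exception was Hormad1, a meiotic chromosome axis gene, with 5.69 in F121, 4.51 and 4.65 in the clones and 5.75 and 5.70 in CM1 and CM2. It was not called (adjusted p = 0.111). Sycp3, a synaptonemal complex gene, was the member that was higher (3.76, 5.48 and 4.89). Asz1, Stk31 and Tuba3a lie on chromosome 6, whose median was below F121 in both clones. At 24 h 4 of the 11 were again 2-fold lower in both clones.

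The germline promoters are shown because many share the palindrome CACGTG, the E-box bound by basic helix-loop-helix factors such as the MAX dimers known to repress germline genes. Each window holds the 150 bases upstream of the RefSeq start (GRCm38.p6), 5′ to 3′ on the gene's strand, with the E-box in capitals. Slc25a31 lies on the plus strand at chr3:40708721-40708870, Stk31 on the plus strand at chr6:49395389-49395538 and Fkbp6 on the minus strand at chr5:135350045-135350194.
Slc25a31: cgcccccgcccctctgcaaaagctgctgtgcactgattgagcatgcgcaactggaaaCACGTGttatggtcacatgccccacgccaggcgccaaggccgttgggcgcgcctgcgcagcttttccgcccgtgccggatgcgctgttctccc
Stk31: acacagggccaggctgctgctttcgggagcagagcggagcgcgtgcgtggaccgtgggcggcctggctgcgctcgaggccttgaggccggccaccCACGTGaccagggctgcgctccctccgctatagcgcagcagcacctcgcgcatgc
Fkbp6: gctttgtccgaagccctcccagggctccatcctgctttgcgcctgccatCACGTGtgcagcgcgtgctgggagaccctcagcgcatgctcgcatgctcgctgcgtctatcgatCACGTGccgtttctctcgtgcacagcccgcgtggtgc
Within 250 upstream bases the E-box was present in 13 of the 22 tested germline genes with a window and in 9.89% of all tested genes with one. Among the 9 germline genes with a window that were lower in both clones it was present in 5, and Sycp3, which was higher, holds it too, so its presence did not separate the directions. Stk31 stood at 5.23 in F121 and 3.82 and 3.87 in the clones, and Fkbp6 at 4.75, 3.32 and 3.25.

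In the X-inactivation centre Xist, the noncoding RNA that silences an X in cis, had 250 reads in F121 against 2025 and 2893 in the clones, or 4.24, 7.45 and 7.86 log2 CPM. CM1 and CM2 stood at 7.13 and 6.95, so F121 was the low library among the XX lines. The limma difference was 3.41 ± 0.19 (adjusted p = 0.00784), and at 24 h it was 1.75 and 1.70 in the clones. Of 9 tested genes of the centre 3 were 2-fold higher in both clones and 0 lower, with 4 called higher and 1 lower. The noncoding gene Ftx (3.50, 4.79 and 4.66, with 3.71 in both CM lines) was above all 3 wild-type XX libraries. Rlim, which encodes a ubiquitin ligase that activates Xist, rose by 0.68 ± 0.14 (9.60, 10.41 and 10.16), with CM1 and CM2 at 9.66 and 9.74. Tsix, the antisense gene that represses Xist, fell by 0.74 ± 0.14. It stood at 5.18 in F121, 4.52 and 4.37 in the clones and 4.27 and 4.24 in CM1 and CM2. F121 was thus the high XX library for Tsix. Xist and Tsix overlap, and although the kit is stranded, whether the counting used strand is not given in the sources used here.

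H19 was the imprinted gene that met the 2-fold rule, of 28 tested. This maternally expressed noncoding RNA stood at 7.03 in F121, 9.51 and 9.72 in the clones and 7.49 and 7.20 in CM1 and CM2, and it rose by 2.59 ± 0.19 (adjusted p = 0.0127). Both clones lay above the 3 wild-type XX libraries, and at 24 h the differences were 3.17 and 3.60. Its neighbour Igf2 (4.95, 5.05 and 5.14) was not called at 0 h. The paternally expressed Peg3 (0.96 ± 0.11) and Sgce (0.94 ± 0.17) were called higher as well, and CM1 and CM2 were as high as the clones for Peg3.

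**Figure D4:**
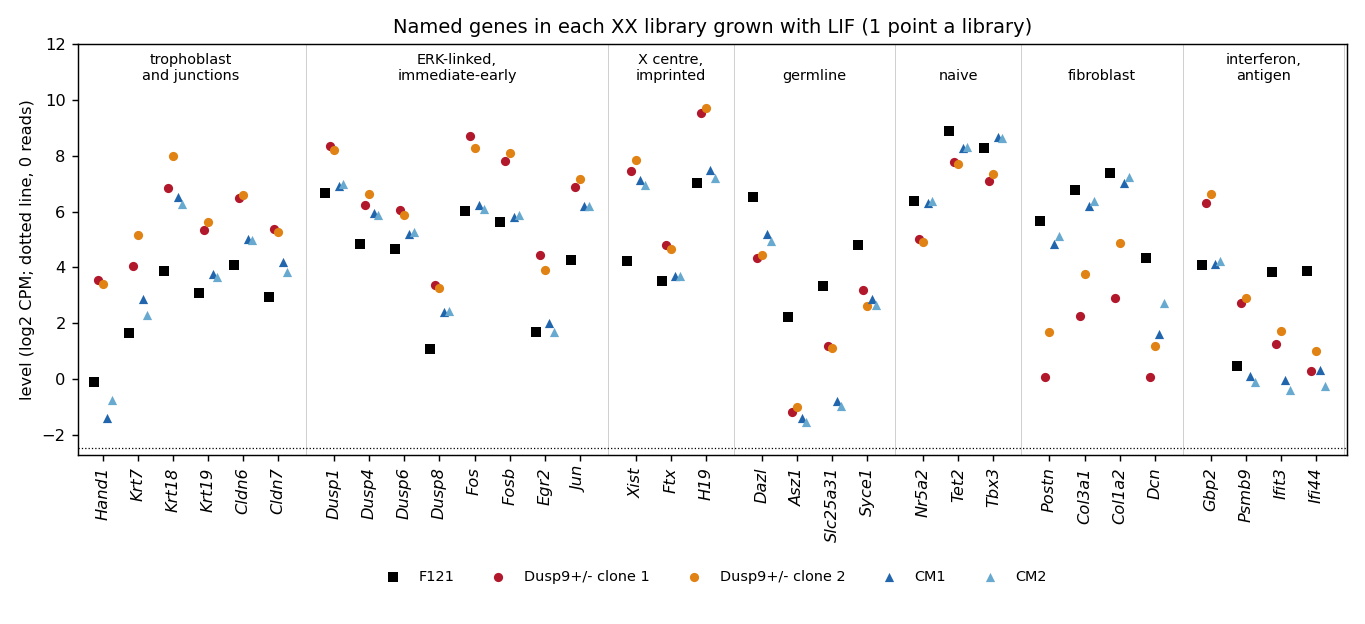
Level (log2 CPM, y axis) of named genes in F121 (black squares), the 2 Dusp9+/- clones (red and orange circles), CM1 and CM2 (blue triangles), 1 point a library; the dotted line marks 0 reads. Hand1, Krt19, Fos, Dusp1, H19 and Gbp2 have both clones above all 3 wild-type lines, while for Xist, Asz1, Syce1, Ifit3 and Ifi44 F121 stands apart from the other 4 libraries.

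Fibroblast and extracellular matrix genes were the list with the largest shared decrease. Of 23 tested, 14 were 2-fold below F121 in both clones and 0 above, limma called 8 lower and 0 higher, and the medians were -2.36 and -1.49. Postn, a matrix protein gene of mesenchymal cells, stood at 5.65 in F121, 0.06 and 1.69 in the clones and 4.85 and 5.14 in CM1 and CM2, and it fell by 4.77 ± 0.69 (adjusted p = 0.0241). The collagens Col3a1 (6.79, 2.27 and 3.76) and Col1a2 (7.37, 2.91 and 4.86) followed, of which Col3a1 was called (adjusted p = 0.0364) and Col1a2 was not (adjusted p = 0.0538). For 10 of the 14 both clones were 2-fold below CM1 and CM2 too. In bulk RNA, fewer cells of a type and less RNA per cell cannot be told apart.

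Summed over the 25 genes of this list in the table, the level was 5207 CPM in F121, 1902 and 2851 in the clones, 4778 and 5284 in CM1 and CM2 and 5752 in the male V6.5, with 1 gene, Meox1, at 0 in F121. At 24 h the sum was 3209 CPM in F121 and 2580 and 1517 in the clones. Y-linked genes, which an XX cell lacks, summed to 19.5 CPM (260 reads) in F121, 8.78 and 13.34 in the clones, 10.44 and 17.11 in CM1 and CM2 and 109.5 in V6.5. CM1 had a higher fibroblast sum than the library labelled clone 2 (4778 against 2851) but a lower Y-linked sum (10.44 against 13.34). Among F121 and the clones alone the Y-linked sums stood in the same order as the fibroblast sums, with Uba1y and Zfy1 at 0 in F121. The labels describe these cultures as free of feeders, while the chromatin samples of the series were grown on male feeder cells. Whether cells of another type contributed to the difference was not tested.

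**Figure D5:**
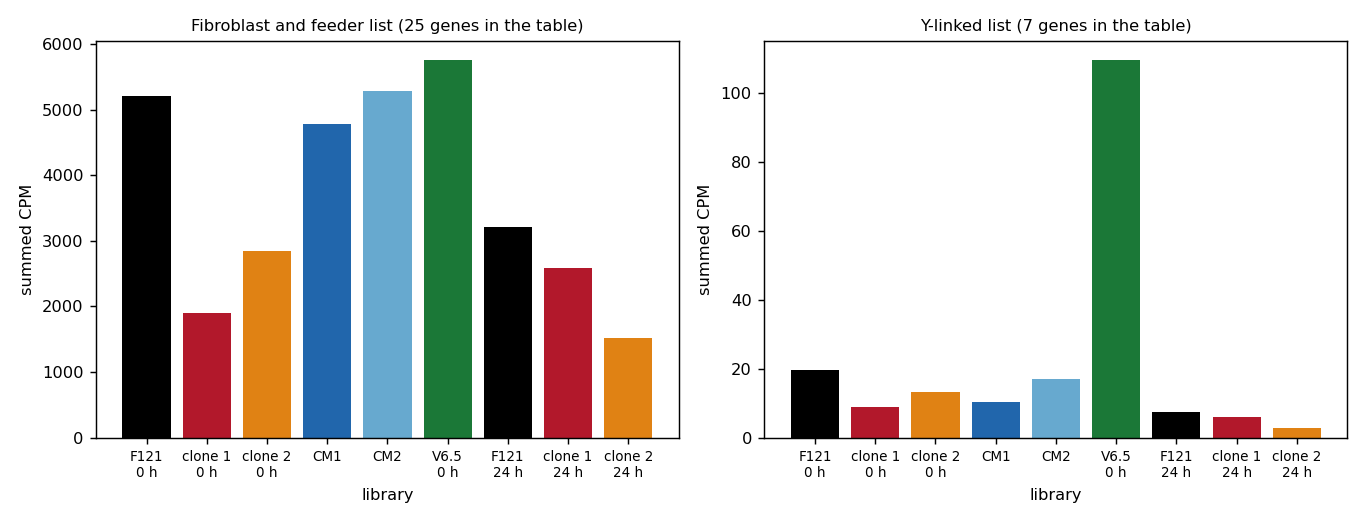
Summed level (CPM, y axis from 0) of the fibroblast and feeder list (left) and the Y-linked list (right) in each library, 1 bar a library. In F121 at 0 h the fibroblast sum is 5207 against 1902 and 2851 in the clones, and the Y-linked sum is 19.5 against 8.78 and 13.34.

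Genes of interferon response and antigen presentation moved in both directions. Of 25 tested, 7 were 2-fold higher in both clones and 2 lower, with 7 called higher and 2 called lower by limma, and the medians were -0.15 and -0.04. CM1 and CM2 had list medians of -2.28 and -1.57 against the same F121 library. They were thus the low XX libraries for much of this list, and a level above CM1 and CM2 is not particular to the clones here. The guanylate-binding protein gene Gbp2 stood at 4.09 in F121, 6.30 and 6.63 in the clones and 4.13 and 4.22 in CM1 and CM2, and it rose by 2.38 ± 0.19 (adjusted p = 0.0135). The immunoproteasome genes Psmb9 (0.47, 2.73 and 2.91) and Psmb8 (1.80, 3.52 and 3.74) and the peptide transporter gene Tap1 (2.90, 4.41 and 4.74) rose as well, and these 3 lie on chromosome 17, whose median was above F121 in both clones. The interferon-induced Oasl2 rose by 1.22 ± 0.22 (adjusted p = 0.0316), from 4.59 to 6.02 and 5.59, with CM1 and CM2 at 2.04 and 2.02. Ifit3 (3.83, 1.28 and 1.73) and Ifi44 (3.87, 0.28 and 1.02), also induced by interferon, fell, and CM1 and CM2 were at or below 0.34 for both. Irf7 and Isg15 were not called (adjusted p = 0.676 and 0.231), nor were Rsad2 (3.02, 4.18 and 3.77, adjusted p = 0.0972) and B2m (7.04, 6.43 and 6.78, adjusted p = 0.461). At 24 h 0 of the 7 were 2-fold higher in both clones.

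The Gbp promoters are shown because 3 neighbouring members hold TTTC, any 2 bases and TTTC again, as in the interferon-stimulated response element. The windows are the 150 bases upstream of each RefSeq start (GRCm38.p6), all on the plus strand, with matches on either strand in capitals, and in Gbp3 a pair of matches overlaps. Gbp2 lies at chr3:142620513-142620662, Gbp3 at chr3:142559894-142560043 and Gbp7 at chr3:142530186-142530335.
Gbp2: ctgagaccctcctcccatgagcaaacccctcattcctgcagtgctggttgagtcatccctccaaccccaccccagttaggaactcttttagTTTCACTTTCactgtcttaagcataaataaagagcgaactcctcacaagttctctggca
Gbp3: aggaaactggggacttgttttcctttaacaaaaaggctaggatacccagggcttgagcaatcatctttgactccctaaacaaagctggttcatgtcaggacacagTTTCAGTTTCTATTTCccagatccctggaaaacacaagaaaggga
Gbp7: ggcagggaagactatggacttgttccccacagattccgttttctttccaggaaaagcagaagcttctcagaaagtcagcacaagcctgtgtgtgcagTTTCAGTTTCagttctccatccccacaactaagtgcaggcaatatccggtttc
Within 250 upstream bases the motif was present in 10 of the 20 list members with a window and in 3.11% of all tested genes with one. It was found in 3 of the 7 genes that were higher and in 1 of the 2 that were lower, Ifit3. Gbp3 stood at 3.62 in F121 and 5.13 and 5.28 in the clones, and Gbp7 at 2.57, 4.14 and 3.87. These Gbp genes are close copies, and reads of 36 bases may be divided among them.

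Sterol synthesis genes showed many small increases. Of 26 tested, 1 met the 2-fold rule, but limma called 13 higher and 0 lower, and the medians were 0.63 and 0.70. Lss, which forms lanosterol, stood at 6.10 in F121, 7.01 and 7.05 in the clones and 6.47 and 6.71 in CM1 and CM2, and it rose by 0.93 ± 0.10 (adjusted p = 0.0173). Hmgcs1 (0.81 ± 0.09), Msmo1 (0.88 ± 0.11) and Dhcr7 (0.82 ± 0.11) rose in the same range. CM1 and CM2 had list medians of 0.44 and 0.38 against the same F121 library. At 24 h the clone medians were -0.31 and -0.32.

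In the glycolysis and hypoxia list 1 of 20 genes, the aldolase gene Aldoc, met the 2-fold rule, with 5 called higher and 1 lower. By the 2-fold rule that is 5.0% of the list, near the 4.17% of all genes tested that were 2-fold higher in both clones. The 5 of 20 that limma called higher stand against 4.81% of all genes tested, so by that measure the share was above the background. The list medians were 0.66 and 0.26 in the clones and 0.24 and 0.07 in CM1 and CM2, against the same F121 library. Vegfa, a hypoxia target that encodes a vascular growth factor, stood at 5.36 in F121 and 6.56 and 6.36 in the clones (1.10 ± 0.15, adjusted p = 0.0223). Of 12 primitive endoderm genes the factor Gata4 was 2-fold higher in both clones (1.04, 2.82 and 2.04; adjusted p = 0.077), and the laminin gene Lama1 was lower and fell by 1.31 ± 0.11 (7.98, 6.63 and 6.71). Limma called 3 of the 12 lower and 0 higher, namely Lama1, Sparc (adjusted p = 0.0264) and Lamc1 (adjusted p = 0.0479). The primitive endoderm medians were -1.07 and -0.5 in the clones and -0.29 and -0.25 in CM1 and CM2, against the same F121 library. Among 10 Wnt targets the ligase gene Rnf43 was higher (4 reads in F121, 36 and 45 in the clones) and Notum, an extracellular Wnt inhibitor, was lower (4.49, 1.89 and 3.25; adjusted p = 0.078). Among 6 mesendoderm genes Wnt3 met the rule, as did Msx1 among 13 BMP and Id genes, both higher. CM1 and CM2 were also 2-fold above F121 for Rnf43 (1.11 and 0.42 against -1.05) and Wnt3 (1.86 and 0.33 against -1.29). For the Wnt, mesendoderm and BMP lists, a single member that met the rule in a direction was not read as a shift of the list. Of all genes tested 4.17% met the rule as higher and 2.48% as lower. None of the 12 neuroectoderm, 9 Nodal pathway, 15 p53 target, 9 mitochondrially encoded or 5 Y-linked genes tested met it, and 1 of the 11 X escape genes did, Ftx. The 2-cell-like list had 1 gene in the table and 0 tested.

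The clones also differed from each other. The library labelled clone 1 was at least 2-fold above the other for 85 genes (0.593%), and the library labelled clone 2 for 310 (2.16%). Gm42418 had 24352 reads in F121 and 12200 and 150010 in clones 1 and 2, or 10.83, 10.04 and 13.56 log2 CPM, and 11.64 and 12.61 in CM1 and CM2. Mir6236 (5.31, 5.63 and 8.91) and Gm15564 (3.89, 3.81 and 6.81) were likewise highest in the library labelled clone 2. CM1 and CM2 were also above F121 for both, at 7.6 and 8.6 for Mir6236 and 4.73 and 5.59 for Gm15564. Rn7sk, the RNA of the 7SK particle, had 8, 5 and 56 reads. In the other direction stood Pygl, the liver glycogen phosphorylase gene on chromosome 12 (3.11 in F121, 5.54 and 3.87), and Slc44a3, a choline transporter-like gene (0.99, 3.26 and 1.73). At 24 h the library labelled clone 2 was again the higher for Gm42418 (10.63 in clone 1 and 12.47 in clone 2) and Mir6236 (6.16 and 7.85). The same held for Gm15564 (3.98 and 6.30) and Rn7sk (0.08 and 1.71). For Pygl (2.62 and 3.63) and Slc44a3 (0.82 and 1.59) the order at 24 h was the reverse of that at 0 h. With 1 library for each clone at each time, these differences have no replicate check within a time.

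After 24 h without LIF both clones were 2-fold above F121 for 503 genes (3.51%) and below it for 255 (1.78%). Of the 598 genes that were higher with LIF 168 were among the 503, which is 28.1% of the first list and 33.4% of the second. Of the 355 that were lower 103 were among the 255, or 29.0% and 40.4%. A test of the difference between the times called 0 genes (0%) by limma, with 1766 at an unadjusted p under 0.05, and Fgf5 was among those not called (adjusted p = 0.115). Krt8, Hand1, H19 and the claudins were high in both clones at both times. For Fos, Egr1, Psmb9 and Nr5a2 the 2-fold rule was met with LIF and not at 24 h, but the change between the times was not called for any of them.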

How the data were processed

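RNA of mouse embryonic stem cells was sequenced single-end after TRIzol extraction and a KAPA stranded mRNA kit, per the labels' protocols. Tools in the submitters' processing notes are STAR (2.5.3a), featureCounts and edgeR, builds GRCm38 and mm10, with no roles given, and whether technical repeats were combined is not stated. The authors deposited log2 CPM values with decimal commas for 16687 genes in 24 columns. Each value came out as a whole number of reads (tolerance 0.01 read) above a floor of 0.183 CPM, so reads were recovered, 8309171 to 14245900 a library, and counting intervals (95%, exact) cover counting error only. The design had foreseen log2 values or linear CPM, and the deposited log2 values were used unchanged.

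Genes averaging 1 CPM or more in the 8 libraries of the withdrawal experiment were fitted with limma 3.58.1 (R 4.3.3; 6 means of genotype and time, trended prior variance), after a check on simulated data. Symbols were placed on GRCm38.p6 through RefSeq (15225 directly, 362 by synonym, 1100 not found), and promoter windows are RefSeq's. Alternatives were other filters, offsets, scalings, spreads, folds and voom, each clone left out, and, added after the data were seen, chromosome 12 removed, CM1 and CM2 for F121, and the 24 h libraries.

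Named genes are Dusp9 and Xist, the 10 largest shared increases and decreases with a higher mean of at least 4 CPM, up to 4 members of each list with 2 or more that met the 2-fold rule or were called, and 5 genes a direction between clones. Other members are named to complete a list and were chosen after their values were seen. The comparison, members and lists were chosen with earlier results of these data known. The chromatin samples were not analysed here. Values of some list members are not reported here.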

Additional observations from a re-analysis of the deposited data

Results flagged for a closer look

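Fgf5, the formative-state growth factor gene, lay above F121 in both clones with LIF (3.86 and 3.84 against 1.53 log2 CPM) and below it in both clones at 24 h, where the mean difference was -0.981. It stands here because every clone moved one way at one time and the opposite way at the other. The difference between the times was 3.30 on the log2 scale and was not called by limma (adjusted p = 0.115). CM1 and CM2 stood at 4.17 and 4.00, near the clones with LIF. In 8 other named genes both clones also lay on one side of F121 with LIF and on the other at 24 h, and limma called none of these differences between the times (adjusted p 0.115 to 0.233). The sterol synthesis genes Lss, Msmo1 and Dhcr7 were above F121 with LIF and lay below it at 24 h, with mean differences of -0.391, -0.652 and -0.84. The immediate-early gene Egr1 and the interferon-induced Oasl2 did the same, at -0.598 and -0.209 at 24 h. The naive-state factor gene Tbx3, Zfp57 and Sparc were below F121 with LIF and lay above it at 24 h, by 0.373, 0.284 and 0.158.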

How the results depend on the processing

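The number of genes limma called (1277 as reported) was 200 with no filter on low values, 643 with the spread from the 3 libraries at 0 h, 708 with the spread from all 24 libraries, 1787 to 2155 with a clone left out and 2499 with CM1 and CM2 in place of F121; the cause was not tested. It lay between 1022 and 1704 under the other settings. The share called higher was 689 of 1277 as reported and 625 of 1398 with libraries centred on their autosomal median. Genes 2-fold higher in both clones (598) numbered 324 at a mean of at least 4 CPM, 375 with an offset of 1 CPM, 112 with 5 CPM, 952 to 987 with a clone left out, 1490 at 1.5-fold and 74 at 4-fold. Genes 2-fold lower (355) numbered 215, 255, 114, 448 to 713, 930 and 48 in the same order, and both counts stayed within 1.5 times otherwise. The X-linked excess of the clones over F121 was 0.372 and 0.338 at a mean of at least 4 CPM. With CM1 and CM2 in place of F121, 20 of 89 named genes changed sign. Called with F121 were Ifi202b 0.464, Gm15262 1.568, Asz1 0.375, Serpina3n 0.059, L1td1 0.012, Fgf5 -0.24, Pou3f1 -0.174, Stat3 0.222, Slc25a31 2.029, Syce1 0.138, Peg3 -0.003, Tsix 0.19, Cldn3 -0.075, Tjp3 -0.042, Ifi44 0.604 and Ifit3 1.721 (log2, clones minus CM). Not called with F121 were Gm16580 -0.16, Gm42418 -0.328, Mir6236 -0.834 and Rpl36-ps3 -1.687. With a clone left out, 5 uncalled genes changed sign. Without clone 1 and without clone 2, Dusp9 was 0.496 and -0.97, Gm16580 -0.389 and 1.711, Gm42418 2.722 and -0.798, Gm15564 2.921 and -0.077, and Rn7sk 2.581 and -0.352. None of the 74 called named genes changed sign under the settings that kept F121, and 28 of them kept the call under every one. With 1 F121 library, the error of that library cannot be measured. No paired analysis was possible because F121 is a single line with a single column and each clone is a line of its own.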
